A study of Homo sapiens with 6 samples.

Results

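The cyclin and cyclin-dependent kinase (CDK) genes were examined for MMP-2 at their transcription start sites (TSSs). Members were all protein coding genes of GENCODE on GRCh37 with a symbol formed by CCN, a letter and an optional number, or by CDK and a number. This gave 46 of 20144 genes, 27 for cyclins and 19 for CDKs. By textbook role, 16 belonged to the cell cycle (11 cyclins and 5 CDKs), 13 to transcription (7 cyclins and 6 CDKs) and 17 to neither list (9 cyclins and 8 CDKs).

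Native ChIP-Seq, in which chromatin is cut into nucleosomes by micrococcal nuclease and precipitated without crosslinking, was carried out on human osteosarcoma cells of the line U2OS. The ProMMP2-3xHA cells were a stable U2OS line with the genotype Pro-MMP2-3XHA, in which MMP-2, a protease, is made constitutively as its pro-form from an added lentiviral copy with 3 HA epitopes at the C-terminus. WT cells carried no tagged copy, and both lines also hold the endogenous MMP-2 gene and were collected 2 days after confluence. Lists were held for 3 HA samples of the ProMMP2-3xHA cells, their merged HA list, and 1 H3K4me3 sample each of ProMMP2-3xHA and WT cells, whereas no separate list of the WT HA sample was used here. An HA peak therefore marks tagged MMP-2 made in addition to the endogenous protein, and only in cells past confluence. Peak lists hold no expression values, so the identity of the cell line was not checked from markers.

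Most cyclins are regulatory subunits of CDKs, and a CDK is typically active only once its cyclin is bound. Cyclins D and E with CDK4, CDK6 and CDK2 drive entry into the cell cycle, and cyclins A and B with CDK2 and CDK1 drive DNA replication and mitosis. Other family members act in transcription: CDK7, CDK9, CDK12 and CDK13 phosphorylate the C-terminal domain of RNA polymerase II, CDK8 and CDK19 belong to the Mediator kinase module, and cyclins L regulate splicing.

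A gene was scored when a peak lay within 1 kb of its canonical TSS. The fold enrichment of a replicate peak was the ratio of HA fragments at the summit to the control background. HA fragments were first scaled down to the depth of the control, and a pseudocount of 1 was added to each side. In replicate 1 the background had the same value, 1.33, at CCND1, CDK4, CCNL1, CCNL2, CDK9 and CDK19, the lowest among members with a peak. The lowest values in replicates 2 and 3 were 1.55 and 1.41. They were again at these genes, except CDK9 in replicate 2, so their ratios rest on the lowest background of the list among members. The names of the lists give an HA control as this background, and whether the 3 replicates share 1 control library is not stated in the sources used here. At CCNT1 and CDK12 the background was 2 and 3 in each replicate after rounding. At CCND2, CDK10 and CCNI it changed between replicates as the lowest value did. These values point to 1 control library for all 3 replicates, so an SD over replicates leaves out the error of the control. Each value was also ranked as a percentile among all peaks of the same replicate near a protein coding TSS, whose median fold enrichment was 4.89, 5.57 and 4.85 in replicates 1, 2 and 3. A median of 50, 44 and 41 HA fragments lay at the summits of these lists, recovered from the deposited values, while depth could not be recovered for H3K4me3 and is unknown. A gene without a peak was below the threshold of the peak caller at this depth, which does not show that MMP-2 was absent.

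HA peaks lay at 23 of the 46 cyclin and CDK genes in the merged list (50%), against 30.1% of all protein coding genes. In the lists of single replicates, 17, 23 and 24 members had a peak in replicates 1, 2 and 3, and the shares among all protein coding genes were 21.8%, 29.6% and 30.4%. Every replicate had a peak at 17 members (37.0%), against 17.3% of all genes. Most members also carried H3K4me3, the histone mark of active promoters, with 41 in ProMMP2-3xHA cells and 42 in WT cells, where 60.5% and 64.3% of all genes were marked. Among the 41 marked members of the ProMMP2-3xHA cells, 23 had merged HA (56.1%), against 49.1% of all marked genes, and 17 had HA in every replicate (41.5%), against 28.3%. The members thus stood further above the background over all genes than among marked genes. None of the 5 members without H3K4me3 in ProMMP2-3xHA cells (CCNA1, CDK3, CDK15, CCNP and CCNI2) had an HA peak in any list, and 72 of 7951 unmarked genes of the genome had one in the merged list.

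**Figure D1:**
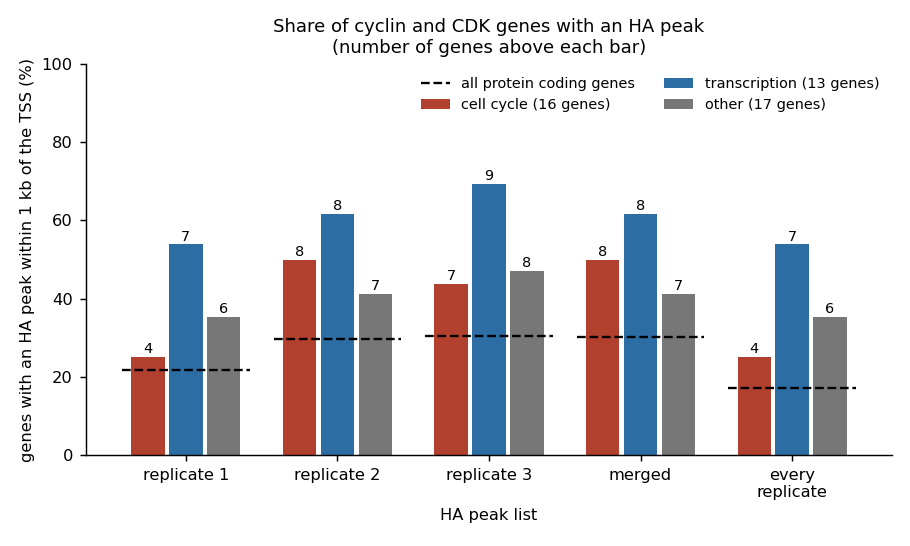
Percentage of cell cycle, transcription and other cyclin and CDK genes with an HA peak within 1 kb of the canonical TSS (y axis) in each HA list (x axis); numbers above the bars are genes and dashed lines are the share of all protein coding genes. The transcription genes had the highest bar in every list, with 8 of 13 genes in the merged list against 8 of 16 cell cycle genes and 7 of 17 others.

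Promoters of related genes with and without merged HA are shown to give the sequence next to the scored TSSs. Each is the 150 bases upstream of the canonical TSS on GRCh37, 5′ to 3′ on the strand of the gene, with motif matches in capitals. The motifs searched on both strands were the CCAAT box (CCAAT), the GC box (GGGCGG) and the cell cycle genes homology region, or CHR element (TTTGAA, or else TTCGAA, or else TTTAAA, or else CTTGAA). Both CCAAT boxes and CHR elements are known from promoters of genes that peak before and in mitosis. The first set holds the mitotic cyclins CCNB1 (chr5:68462827-68462976, plus strand) and CCNB2 (chr15:59397195-59397344, plus strand), which had merged HA, and CCNA2 (chr4:122745039-122745188, minus strand) and CDK1 (chr10:62538086-62538235, plus strand), which did not.
CCNB1: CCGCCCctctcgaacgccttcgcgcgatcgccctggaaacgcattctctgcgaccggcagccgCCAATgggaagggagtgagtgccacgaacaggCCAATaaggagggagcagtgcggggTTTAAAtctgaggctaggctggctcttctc
CCNB2: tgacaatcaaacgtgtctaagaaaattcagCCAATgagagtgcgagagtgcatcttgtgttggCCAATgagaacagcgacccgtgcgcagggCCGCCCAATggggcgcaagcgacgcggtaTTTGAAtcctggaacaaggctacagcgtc
CCNA2: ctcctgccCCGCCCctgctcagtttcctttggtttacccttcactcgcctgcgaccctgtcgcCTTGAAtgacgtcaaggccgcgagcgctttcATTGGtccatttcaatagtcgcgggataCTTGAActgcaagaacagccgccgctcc
CDK1: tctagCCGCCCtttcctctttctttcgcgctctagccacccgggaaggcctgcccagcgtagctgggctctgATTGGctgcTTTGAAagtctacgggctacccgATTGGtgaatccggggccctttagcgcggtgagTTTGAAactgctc
All 4 held both a CCAAT box and a CHR element. The CHR match next to the start lay at bases 30 to 25 upstream of the TSS in CCNB1 (TTTAAA), 29 to 24 in CCNB2 (TTTGAA), 28 to 23 in CCNA2 (CTTGAA) and 13 to 8 in CDK1 (TTTGAA). In CCNB2 the GC box overlaps the CCAAT box nearest to the TSS. The presence of these letters did not separate the cyclins with merged HA from CCNA2 and CDK1 without a merged peak.

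The second set holds partners in transcription: CCNT1 (chr12:49110491-49110640, minus strand) and CDK9 (chr9:130548163-130548312, plus strand), which form the elongation kinase P-TEFb and both had HA, and CDK12 (chr17:37617589-37617738, plus strand) with HA and its cyclin CCNK (chr14:99947596-99947745, plus strand) without it.
CCNT1: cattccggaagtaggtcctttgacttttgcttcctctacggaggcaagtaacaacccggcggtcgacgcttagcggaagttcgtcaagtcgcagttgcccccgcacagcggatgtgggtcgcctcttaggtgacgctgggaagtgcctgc
CDK9: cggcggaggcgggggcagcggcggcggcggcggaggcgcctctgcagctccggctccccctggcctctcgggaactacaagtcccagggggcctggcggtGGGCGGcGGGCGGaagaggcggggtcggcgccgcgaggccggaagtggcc
CDK12: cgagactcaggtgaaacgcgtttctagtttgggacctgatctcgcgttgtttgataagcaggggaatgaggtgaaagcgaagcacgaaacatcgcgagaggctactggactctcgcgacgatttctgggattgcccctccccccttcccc
CCNK: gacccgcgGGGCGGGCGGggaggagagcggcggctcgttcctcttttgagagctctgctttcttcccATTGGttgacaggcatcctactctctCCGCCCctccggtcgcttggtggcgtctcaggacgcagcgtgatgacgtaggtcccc
CCNT1 and CDK12 held none of the 3 motifs in this window, CDK9 held 2 GC boxes, and CCNK held 1 CCAAT box and 3 GC boxes, of which a pair overlap. No CHR match occurred in any of the 4.

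Among the cell cycle cyclins, 6 of 11 had merged HA: CCND1, CCND2, CCNB1, CCNB2, CCNE1 and CCNF. The highest fold enrichment was at CCND1, the cyclin D that links growth signals to CDK4 and CDK6, with 7.17, 9.34 and 6.92 in replicates 1, 2 and 3 (mean 7.81 ± 1.33, SD, n = 3). These values rested on 56, 64 and 47 fragments and lay between percentiles 84.8 and 90.4 of their lists. CCND2, another cyclin D, had 6.41, 6.07 and 5.85 (mean 6.11 ± 0.279), the narrowest spread of the cell cycle genes with a peak in every replicate. Its canonical TSS (chr12, position 4382928, plus strand) is also the 5′ end of an overlapping protein coding gene, ENSG00000285901, so the peak cannot be assigned to either alone. CCND3 had no HA peak in any list at its canonical TSS.

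The mitotic cyclins with a peak had lower fold enrichments than CCND1. CCNB1, the main mitotic partner of CDK1, had 4.11, 6.60 and 4.67 (mean 5.12 ± 1.31) on 33, 48 and 39 fragments. CCNB2 had no peak in replicate 1, and 5.26 and 4.41 in replicates 2 and 3. In replicate 3, CCNB2 had 78 fragments over a control background of 5.12, and CCND1 had 47 over 1.41. A lower ratio at CCNB2 thus did not mean fewer HA fragments. Replicate 1 also lacked a peak at CCNF, which encodes an F-box protein of a ubiquitin ligase and no CDK activator. CCNF had 4.44 and 6.85 in replicates 2 and 3, on 72 and 86 fragments. Likewise CCNE1, the activator of CDK2 at the start of DNA replication, had 3.66 and 4.57 in replicates 2 and 3 and no peak in replicate 1. The merged region of CCNE1 lay at -759 to -516 bp, upstream of its TSS, and a window of 500 bp in place of 1 kb left it out. CCNA2, CCNE2 and CCNB3 had H3K4me3 but no HA peak in any list, and CCNA1, a germline cyclin, had neither.

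Among the 5 cell cycle CDKs, CDK4 and CDK6 had merged HA. CDK4, the kinase of the D-type cyclins, had 4.52, 10.6 and 5.12 (mean 6.75 ± 3.35) on 34, 73 and 34 fragments, and replicate 2 stood above the other replicates. CDK6, which shares the cyclin partners of CDK4, had a merged region of 3021 bp across its TSS but no replicate peak within 1 kb. The only replicate peak that overlapped that region was in replicate 2 (fold enrichment 5.01, chr7:92462211-92463603). Its centre, 2980 bp into the gene, lay past the end of the region at 2743 bp. At CDK1, the mitotic kinase, the only peak was in replicate 2, with a fold enrichment of 3.47 at a summit 426 bp downstream of the TSS and at percentile 7.08 of its list. CDK2 carried H3K4me3 and no HA peak, and CDK3 carried neither.

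Of the transcription cyclins, CCNL1, CCNL2, CCNT1 and CCNT2 had merged HA, and CCNC, CCNH and CCNK did not. CCNL1, a cyclin of splicing, had 9.46, 10.5 and 9.27 (mean 9.73 ± 0.642) on 75, 72 and 64 fragments. Each value was at percentile 93.9 or higher, so CCNL1 ranked high in every replicate. CCNL2, its paralog, had 5.49, 5.15 and 6.09 (mean 5.57 ± 0.476). CCNT1, the main cyclin of CDK9, had 4.45, 9.95 and 5.56 (mean 6.65 ± 2.91), with replicate 2 again above the others. CCNT2, the alternative cyclin of CDK9, had a peak in replicate 3 only (4.52 on 46 fragments) beside its merged region of 915 bp. The merged region of CCNT2 overlapped peaks of 1 replicate and that of CCNT1 overlapped peaks of 3. CCNC, the cyclin of the Mediator kinases, had 3.56 in replicate 3 and no merged peak. CCNH, the cyclin of CDK7, and CCNK, the cyclin of CDK12 and CDK13, had no peak in any HA list.

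Of the 6 transcription CDKs, CDK9, CDK12, CDK13 and CDK19 had merged HA and a peak in every replicate. CDK13 had the highest mean fold enrichment of the members with a peak in every replicate, with 8.71, 12.8 and 10.6 (mean 10.7 ± 2.06) on 83, 108 and 92 fragments, at percentiles 95.1 to 98.0. It ranked first in replicates 2 and 3, whereas in replicate 1 CCNL1 was higher and CCNI had the same value after rounding. Its summits lay upstream of the TSS at -909, -927 and -933 bp, and another 5′ end, that of the lncRNA CDK13-DT, lies 501 bp from that TSS. CDK12, the closest relative of CDK13, was lower, with 4.25, 6.13 and 4.17 (mean 4.85 ± 1.11), and the 3 values of CDK13 all exceeded its 3 values. CDK19, a Mediator kinase, had 5.85, 8.92 and 6.09 (mean 6.95 ± 1.71), whereas CDK8, its paralog, had H3K4me3 and no HA peak. CDK9, the kinase of P-TEFb, had 5.61, 6.75 and 6.64 (mean 6.33 ± 0.630). CDK7, the kinase of TFIIH, had 3.48 in replicate 2 only, at percentile 7.22 of its list, and no merged peak.

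**Figure D2:**
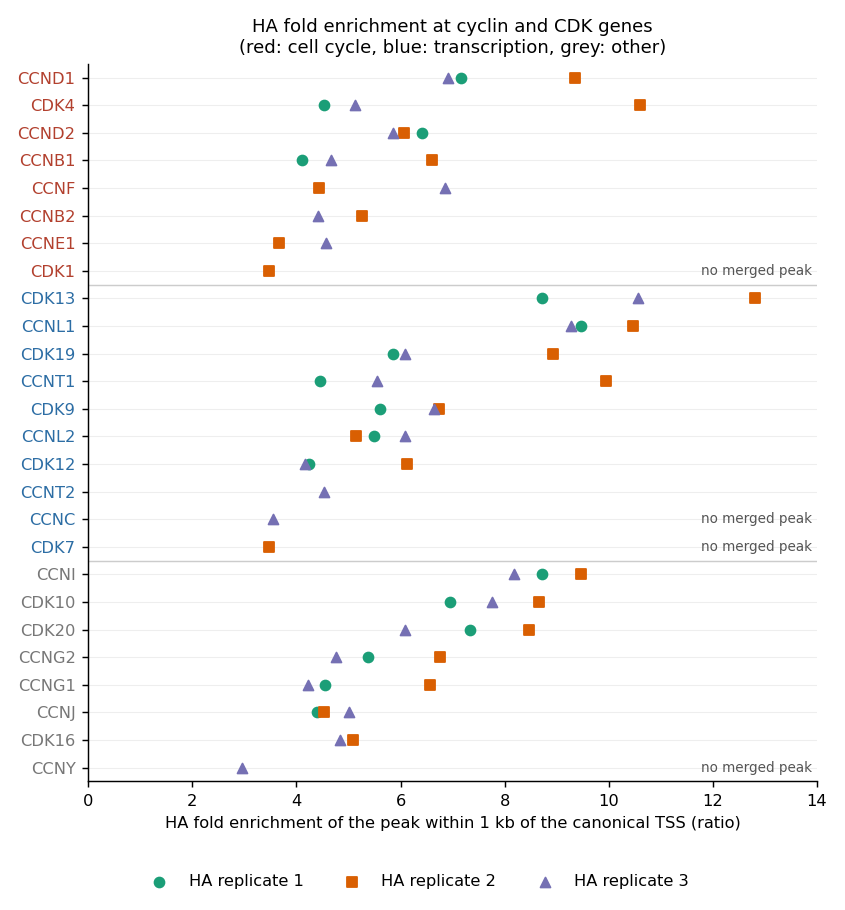
HA fold enrichment (x axis, ratio) of the peak within 1 kb of the canonical TSS for the 26 members with a peak in at least 1 replicate (y axis), with a point for each replicate and the roles separated by lines. CDK13 reached 12.8 in replicate 2, and the 4 members marked as without a merged peak had a single replicate peak between 2.95 and 3.56.

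Cell cycle and transcription genes were then compared. Merged HA was at 8 of 16 cell cycle genes (50%, exact 95% interval 24.7 to 75.3%) and 8 of 13 transcription genes (61.5%, 31.6 to 86.1%), a difference of 11.5 percentage points, and the intervals overlap widely. These intervals cover counting error only and treat genes as independent. In the lists of replicates 1, 2 and 3 the transcription share was higher by 28.8, 11.5 and 25.5 points (mean 21.96 ± 9.18, SD, n = 3), so the direction was the same in each library. HA in every replicate was at 4 cell cycle genes (CDK4, CCNB1, CCND1 and CCND2; 25%) and 7 transcription genes (CDK19, CDK13, CDK9, CDK12, CCNL2, CCNL1 and CCNT1; 53.8%), against 17.3% of all genes. Among genes with H3K4me3 in ProMMP2-3xHA cells these shares were 28.6% (4 of 14) and 53.8% (7 of 13), against 28.3% of all marked genes. The cell cycle share was thus near that of all marked genes. All 13 transcription genes carried H3K4me3 and 14 of the 16 cell cycle genes did, and among marked genes the difference of the merged list was 4.40 points (8 of 14 against 8 of 13). It was -1.92 points when the merged region had to cover the TSS itself, with 4 cell cycle and 3 transcription genes left. CDK7 and cyclin H also activate the cell cycle CDKs, and placing them with the cell cycle genes gave 28.3 points.

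The fold enrichment was also set side by side for the genes where a peak was called. The median was 5.47, 5.66 and 5.12 over the 4, 8 and 7 cell cycle genes with a peak in replicates 1, 2 and 3. Over the 7, 8 and 9 transcription genes it was 5.61, 7.83 and 6.09, higher in each replicate. Over all protein coding genes with a peak it was 4.97, 5.68 and 5.01. The lowest and highest values overlapped, from 3.47 to 10.6 in cell cycle genes and 3.48 to 12.8 in transcription genes of replicate 2.

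In 17 cyclin and CDK genes of other roles, 7 had merged HA and 6 of these had a peak in every replicate. CCNI, a cyclin of postmitotic cells, was the highest at 8.71, 9.46 and 8.18 (mean 8.78 ± 0.643), all at percentile 90.6 or higher. CDK10 had 6.94, 8.66 and 7.77 (mean 7.79 ± 0.859), and CDK20, also known as cell cycle related kinase, had 7.33, 8.46 and 6.09 (mean 7.29 ± 1.18). These 3 genes exceeded the median of their list in each replicate. CCNG1 and CCNG2, atypical cyclins linked to growth arrest, had 4.54, 6.57 and 4.22 (mean 5.11 ± 1.27) and 5.38, 6.75 and 4.75 (mean 5.63 ± 1.02). CCNJ had 4.39, 4.53 and 5.02 (mean 4.65 ± 0.329). These cyclins lay nearer the medians of their lists than CCNI did. CDK16, a kinase activated by cyclin Y, had no peak in replicate 1, and 5.08 and 4.84 in replicates 2 and 3. CCNY, that cyclin, had a replicate 3 peak only. CDK5, CDK14, CDK17, CDK18, CCNO and CCNQ had H3K4me3 in both cell lines and no HA peak, CCNI2 had H3K4me3 in WT cells only, as a region of 274 bp, and CDK15 and CCNP had neither.

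Because a cyclin acts with its kinase, HA was compared between partners over 22 known pairs, which share genes and are not independent. Merged HA was at both partners in 6 pairs, at the CDK alone in 7, at the cyclin alone in 3 and at neither in 6. With 23 of all 46 members marked (50%), such counts can arise without any link between partners. They are therefore not read as agreement between partners. The pairs with both were CCND1 and CCND2 with CDK4 and CDK6, and CCNT1 and CCNT2 with CDK9. CDK1 and CDK2 had no merged HA, so the pairs of CCNB1 and CCNB2 with CDK1 and of CCNE1 with CDK2 were marked at the cyclin alone. At CCNK with CDK12 and CDK13, CCNC with CDK19, CCNQ with CDK10, CCNY with CDK16, and CCND3 with CDK4 and CDK6, the kinase alone was marked. Neither partner had merged HA for CCNA2 with CDK1 and CDK2, CCNE2 with CDK2, CCNH with CDK7, CCNC with CDK8 and CCNY with CDK14. The merged calls of CDK6 and CCNT2 are those with the least support from single replicates, so the pairs with a peak of every replicate at both partners were CCND1 and CCND2 with CDK4, and CCNT1 with CDK9.

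The position of MMP-2 relative to the TSS differed among members. For cell cycle genes, 4 of 4, 6 of 8 and 4 of 7 summits within 1 kb lay downstream of the TSS in replicates 1, 2 and 3, with medians of 102.5, 128 and 123 bp. For transcription genes, 2 of 7, 3 of 8 and 3 of 9 lay downstream, with medians of -278, -280 and -277 bp, that is, upstream. Over all protein coding genes 55.3%, 56.3% and 59.0% of such summits lay downstream, with medians of 65, 84 and 95 bp. The upstream summits were those of CDK13, CCNT1, CCNT2, CCNL1, CCNL2 and CDK19, whereas CDK9 and CDK12 had theirs 116 to 252 bp downstream. The annotated gene starts 613 bp upstream of the canonical TSS at CCNL1 and 489 bp upstream at CDK19. Their summits lie downstream of that 5′ end, so their side depends on the TSS chosen. Summits of CDK13, CCNT1, CCNT2 and CCNL2 lie upstream of both. At CDK13, CCNL2 and CCNT2 the 5′ end of an lncRNA lies 501, 180 and 110 bp from the canonical TSS. The signal there cannot be divided between the gene starts. In several genes the replicates were close: CCNL1 at -253, -247 and -262 bp, CDK10 at 129, 133 and 126 bp, and CCND1 at 119, 129 and 155 bp. In others they were not, as in CCNB1 (71, 146 and -333 bp), CCNJ (-252, -206 and 106 bp), CCNG2 (1017, -134 and 165 bp) and CDK16 (-1106 and -340 bp). CCNE1 (-675 and -699 bp) and CCNF (-497 and -432 bp) were the cell cycle genes with peaks wholly upstream. Over all members 53.6% ± 3.23 (SD, n = 3) of summits lay downstream. The canonical TSS is annotated and was not measured in these cells.

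**Figure D3:**
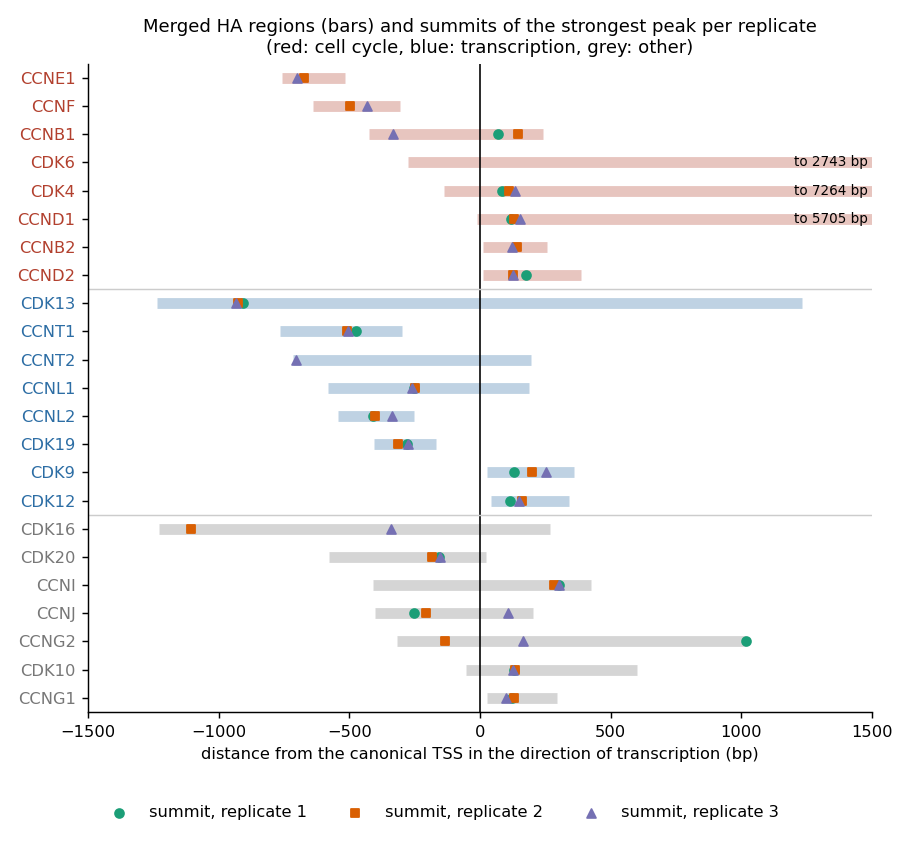
Distance from the canonical TSS along the gene (x axis, bp; negative is upstream) of the merged HA region (bars) and of the summit of the strongest peak in each replicate (points) for the 23 members with merged HA. Summits of CCND1, CCND2, CCNB2 and CDK4 lie just downstream of the TSS, those of CCNT1, CCNL1, CCNL2, CDK19 and CDK13 upstream, and 3 cell cycle regions run past the axis to 2743, 5705 and 7264 bp.

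Some merged regions were wide. A merged region over 2 kb lay at 4 members, CCND1, CDK4, CDK6 and CDK13, that is 3 of the 8 cell cycle genes with merged HA, 1 of the 8 transcription genes and none of the 7 others. The share was 2.48% of all protein coding genes and 8.24% of those with merged HA. At CDK4 (canonical TSS at chr12, position 58146093, minus strand) the region was 7401 bp, from -136 bp to 7264 bp from the TSS. It covered all of the canonical transcript of 4584 bp. It also ran past the 3′ end of the gene at position 58141510, to position 58138829, so part of it lies outside CDK4. At CCND1 (chr11, position 69455924, plus strand) it was 5716 bp and covered 42.8% of the transcript of 13319 bp. Regions of CDK6 and CDK13 covered 1.18% and 0.828% of their much longer transcripts. Replicate peaks inside the wide region of CCND1 lay 1983 bp downstream in replicate 2 and 2190 bp in replicate 3, with fold enrichments of 5.85 and 4.56. Width in this list depends on how narrow and broad calls were joined by the authors.

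H3K4me3 was wider in WT than in ProMMP2-3xHA cells at 38 of 41 members (92.7%), which is the share of all genes (93.1%). The median ratio of the WT to the ProMMP2-3xHA width was 1.20 for members and 1.28 for all genes marked in both lines. CCNB2, CDK2 and CCNG2 were the members not wider in WT cells, with 1723 against 1405 bp, 1621 against 1472 bp and 2393 against 2354 bp. The ratio was 15.2 at CDK5, a kinase of neurons, whose region spanned 387 bp in ProMMP2-3xHA and 5884 bp in WT cells, and another protein coding 5′ end, of SLC4A2, lies 687 bp away. CCND1 had 2726 bp in ProMMP2-3xHA and 6011 bp in WT cells. With 1 library per cell line and an unknown depth, these differences have no replicate check.

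Members with merged HA had slightly wider H3K4me3 in the ProMMP2-3xHA cells than marked members without it, with medians of 1872 and 1658 bp, and the ranges overlapped (779 to 5401 and 387 to 4382 bp). Over all genes the medians were 1681 and 1189 bp. The difference was larger among the transcription genes, with 1967 bp for the 8 genes with HA and 1233 bp for the 5 without, than among the other roles, with 1756 and 1695 bp. For cell cycle genes the medians were 2104 and 1755.5 bp. In WT cells, which hold no tagged MMP-2, the members with HA in the tagged line had a median of 2354 bp and those without had 2227 bp. By role these medians were 2568 and 1901.5 bp for cell cycle genes and 2514 and 2037 bp for transcription genes. The order was reversed for the other roles, with 2235 and 2734 bp.

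**Figure D4:**
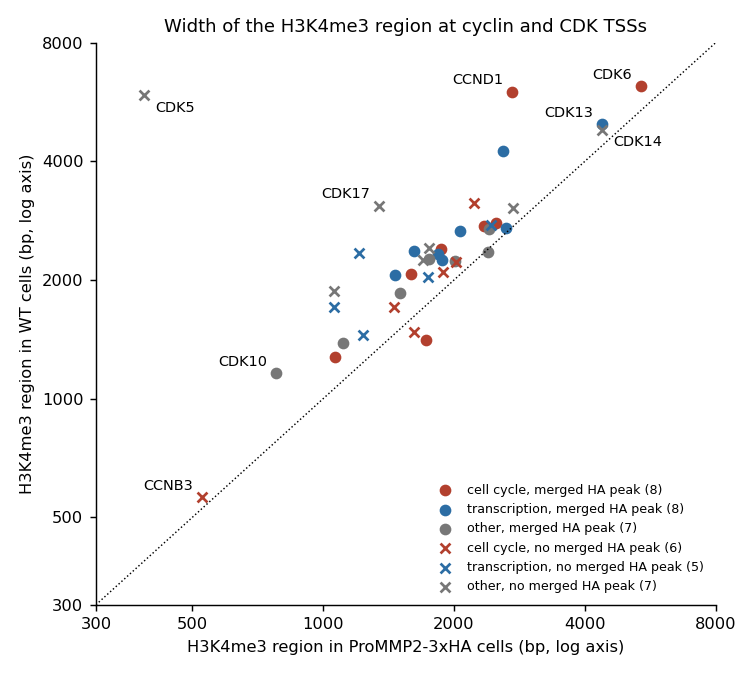
Width of the widest H3K4me3 region within 1 kb of the TSS in ProMMP2-3xHA (x axis) and WT cells (y axis) for the 41 members marked in both, on log axes in bp, with colours for role, circles for merged HA and crosses for none. All points but CCNB2, CDK2 and CCNG2 lie above the dotted line of equal width, and CDK5 lies farthest from it at 387 and 5884 bp.

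Genes that act on cyclins and CDKs were scored in the same way from 5 lists. Merged HA was at 2 of 8 CDK inhibitor genes (CDKN1A and CDKN1B), 6 of 8 genes of CDK phosphorylation and binding (CDC25A, CDC25B, WEE1, PKMYT1, CKS1B and CKS2) and 9 of 13 genes of the RB and E2F families (RB1, RBL1, RBL2 and E2F2 to E2F7). It was at 5 of 8 genes of cyclin degradation (SKP1, SKP2, CDC20, ANAPC2 and ANAPC11) and 5 of 11 genes that act with the transcription CDKs (MED13, HEXIM1, HEXIM2, MEPCE and CDK11B). In all, 27 of 48 had merged HA (56.3%), against 30.1% of all genes, and 16 had a peak in every replicate (33.3%), against 17.3%. H3K4me3 marked 46 of the 48 in ProMMP2-3xHA cells, and the shares among all marked genes, 49.1% in the merged list and 28.3% in every replicate, were nearer to those of the pathway genes. CDK11B has a near-identical neighbouring copy, CDK11A, and reads could be split between them, so both are uncertain. The merged regions scored for CKS1B, ANAPC2, ANAPC11 and MEPCE also hold the TSS of another protein coding gene (SHC1, SSNA1, ALYREF and ZCWPW1, at 286, 100, 137 and 839 bp), and LMBRD2 starts 224 bp from SKP2, so these hits cannot be assigned to the pathway genes alone.

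The highest mean fold enrichment among these genes was at CDKN1A, the CDK inhibitor induced by p53, with 7.54, 15.1 and 13.5 (mean 12.0 ± 3.98). HEXIM2, an inhibitor of P-TEFb, had 9.31, 13.8 and 8.33 (mean 10.5 ± 2.89). MEPCE, which caps the RNA that holds P-TEFb inactive, had 6.71, 8.44 and 7.11 (mean 7.42 ± 0.906). Its summits lay upstream at -889, -907 and -898 bp and its merged region holds the TSS of ZCWPW1, 839 bp from that of MEPCE, so the signal cannot be assigned to MEPCE alone. HEXIM1, HEXIM2 and MEPCE thus had merged HA, as had CDK9, CCNT1 and CCNT2, while LARP7, of the same inhibitory complex, had no HA peak. PKMYT1, which phosphorylates and inhibits CDK1, had 7.91, 9.0 and 7.89 (mean 8.27 ± 0.638), while CDK1 itself had no merged peak. SKP1, a subunit of the SCF ubiquitin ligase, had 7.53, 10.0 and 7.05 (mean 8.21 ± 1.61), and CKS2, a CDK-binding subunit, had 6.13, 9.33 and 6.96 (mean 7.48 ± 1.66).

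Sequence composition around the TSS was similar with and without HA. Over the 500 bases centred on the TSS, the median GC content was 66.6% for the 23 members with merged HA, 65.4% for the 18 marked members without it and 64.6% for all genes. The ratio of observed to expected CpG was 0.910, 0.897 and 0.774. In the 150 bases upstream of the TSS, a CHR match occurred at 6 of 16 cell cycle genes (CCNA2, CCNB1, CCNB2, CCNE1, CCNF and CDK1) and 0 of 13 transcription genes, and at 12.9% of all promoters. A CCAAT box occurred at 8 of 16 and 2 of 13, and at 26.4% of all promoters, and a GC box at 13 of 16 and 9 of 13, and at 52.2%. By HA state, a CCAAT box occurred at 6 of 23 members with merged HA and 6 of 18 marked members without it, a CHR match at 5 and 2, and a GC box at 17 and 14. Matches are descriptions of letters and were not tested for a bound factor.

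Another gene's 5′ end lay within 1 kb of the canonical TSS at 18 of the 46 members, and it belonged to a protein coding gene at 4 (CCND2, CCNE2, CCNK and CDK5). Of the 23 members with merged HA, 13 had no such neighbour, including CCND1, CDK4, CCNL1, CCNT1, CDK12 and CDK19. The count covers 1 kb around the TSS and not the whole of wide regions such as those of CDK4 and CCND1. At the other 10 the signal near the TSS cannot be divided between the gene starts. Taking the 5′ end of the gene in place of the canonical TSS removed CDK4, CCND2 and CDK10 from the merged count and added CCND3, and taking any protein coding transcript start added CCND3 and removed none. CDK4, CCND2 and CDK10 have a longer annotated gene whose 5′ end lies 3703, 3991 and 5952 bp from the canonical TSS.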

How the data were processed

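Native ChIP-Seq libraries of 6 samples fell into 4 groups by antibody and cell line, and lists of 5 samples were used. The authors trimmed reads with Trim Galore 0.6.0, aligned them to GRCh37 (hg19) with Bowtie2 2.3.5.1, filtered them with SAMtools 1.9, removed duplicates with Picard and called peaks with MACS2 (version 3.0.0a6 in the submitters' processing notes) at a q-value of 0.05. The 3 HA replicates, which the study describes as independent biological experiments, were called separately, and each deposited line gives a score, the fold enrichment (a ratio) and −log10 p-values and q-values. The score was not analysed. For the merged HA list the authors called peaks on pooled replicates, and this list and the H3K4me3 lists are deposited as joined narrow and broad intervals without a score.

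Here, gene models were those of GENCODE version 44, as lifted to GRCh37, with a tagged canonical TSS for all but 281 genes, for which the 5′ end of the gene was used. No region passed a chromosome end of the reference. Lines sharing an interval were 1 peak with its highest fold enrichment. Regions within 1 kb of a TSS were counted in Python 3.11.15 (numpy 2.4.6, scipy 1.17.1), and these counts equalled those of bedtools 2.31.1. Sequences were read with pysam 0.24.0, and figures used matplotlib 3.10.9. HA fragments at summits were recovered from the fold enrichment and p-value for 94.6%, 98.4% and 96.6% of summits in replicates 1, 2 and 3, after a check on simulated summits. The HA libraries were 3.57, 2.81 and 3.00 times as deep as their control, which the list names give as an HA control. The recovered backgrounds point to 1 control library for all 3. No test was run: shares are set beside those of all protein coding genes, and values are given per replicate. Named were all cell cycle and transcription members with their state and replicate values, other members with values where the merged list had a peak, and pathway genes with merged HA, with values for the 6 highest means. The members, lists and alternatives were chosen with earlier results of these data known. Alternatives were the window, the TSS definition, stricter q-values, leaving out each replicate and the role lists.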

Additional observations from a re-analysis of the deposited data

How the results depend on the processing

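Over 8 results, 52 of 61 alternatives left the value within its spread, a count within 1.5 times, or the H3K4me3 width equal. Part of this tally was fixed in advance. A mean without 1 of 3 replicates always lies within the SD of the 3, as for fold enrichment and position. A wider window or fewer required replicates cannot lower a count. The tally is therefore not a measure of robustness. For the transcription minus cell cycle difference the spread was the SD of 9.18 points, which is wide beside its value. Falls to 4.40 points (marked genes only) and 5.29 points (any protein coding transcript start) were therefore among these. Requiring the region to cover the TSS had the widest effect: 13 members in place of 23 had merged HA and 5 in place of 17 had HA in every replicate, the median fold enrichment was 7.19 (main 5.85), the median H3K4me3 width 1864 bp (main 1756 bp), and the transcription minus cell cycle difference reversed to -1.92 points (main 11.5). That alternative leaves out peaks beside the TSS by construction. The difference was 28.8 and 25.5 points in the lists of replicates 1 and 3, and 28.3 with CDK7 and CCNH placed with the cell cycle genes. Summits within 500 bp were downstream in 61.1% (main 53.6%). The causes of these shifts were not tested. Leaving out each replicate in turn gave 17 to 21 members with HA in every remaining replicate, fold enrichments of 5.47 to 6.10 and downstream shares of 52.3 to 55.4%. No paired analysis was possible because the result comes from no test and the groups share fewer than 2 replicate numbers. The files hold no reads, so genes without a peak cannot be ranked, and the H3K4me3 lists rest on 1 library per cell line.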

Other observations

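HA peaks that overlapped member genes over 1 kb from the canonical TSS were few. The merged list had 1 (chr16:89761791-89766979, 5189 bp wide), which overlapped the 3′ end of CDK10 at position 89762762 and lay mostly past it, and where replicates 1, 2 and 3 had fold enrichments of 5.85, 9.48 and 4.56. In the replicate lists, 2, 8 and 7 such peaks lay in 9 members. Those at CCNF (5.1 in replicate 1 and 5.22 in replicate 2) lay near the start of the neighbouring gene TEDC2 and carried H3K4me3. CCND3, without HA at its canonical TSS, had a replicate 2 peak of 3.75 beside transcript starts of its own upstream at -106863 bp, where H3K4me3 was also called, and a replicate 3 peak of 4.43 away from H3K4me3. CCNY had a peak 111609 bp into the gene in replicate 2 (4.59) and 111813 bp into it in replicate 3 (4.15), away from H3K4me3 in both cell lines. These genes were named after their values were seen.

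CDKN2A and CDKN2B, CDK inhibitor genes named after their values were seen, were the pathway genes without H3K4me3 in ProMMP2-3xHA cells, and CDKN2B was marked in WT cells. No member value stood apart by the rule for groups of 4 or more samples, since no group had more than 3.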
